A study of Mus musculus with 8 samples.

Results

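Immediate early genes are transcribed within minutes of a stimulus, without new protein synthesis, because the transcription factors that switch them on are already present in the cell. The 10 examined here were taken by symbol from a fixed list: Fos, Fosb, Jun, Junb, Egr1, Atf3, Ier2, Dusp1, Nr4a1 and Arc. All 10 were found among the 15035 genes of the table, and all 10 passed the minimum of 10 normalized counts in at least 4 libraries that left 14870 genes for testing. The tissue was the auditory nerve dissected from mouse cochleas at postnatal day 21, sequenced as bulk poly(A) RNA, with the 2 cochleas of a mouse pooled into 1 library. Wild-type mice gave 4 libraries (WT1 to WT4, by replicate number), and 4 were from mice labelled Mef2c heterozygote, written +/- in the series' design (HT5 to HT8). The labels name no strain, sex, Cre driver or treatment, and they do not say how the Mef2c allele was made.

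In neurons and glia these genes respond to depolarization, growth factors and injury, and dissection itself can induce them. Calcium and MAP kinase signals reach them through SRF with its ternary complex partners, through CREB at cyclic AMP response elements, and through MEF2 proteins, which hold some of them ready for calcium-dependent induction. Nr4a1, Jun and Arc have been studied as targets of MEF2 factors. The question the comparison addresses is whether these transcripts differ between nerves of mice labelled wild type and Mef2c heterozygote.

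The start regions of 7 of the 10 genes were read from RefSeq (GRCm38.p6), each running from 250 bases before to 50 bases after the annotated start. Those of Egr1, Ier2 and Arc were not used here. The 5 below are shown because Nr4a1 was the gene that separated the groups, Fos and Dusp1 carry CREB-type letters, and Jun and Atf3 are the genes with a match to the MEF2 consensus. Capitals mark the core of the cyclic AMP response element, TGACG or its reverse complement CGTCA, and the MEF2 consensus.
Nr4a1: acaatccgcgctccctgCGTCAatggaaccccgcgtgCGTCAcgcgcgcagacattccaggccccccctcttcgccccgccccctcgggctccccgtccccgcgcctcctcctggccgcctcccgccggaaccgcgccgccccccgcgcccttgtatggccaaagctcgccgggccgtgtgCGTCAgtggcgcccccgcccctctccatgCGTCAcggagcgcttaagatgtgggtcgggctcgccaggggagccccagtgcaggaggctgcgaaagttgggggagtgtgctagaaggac
Fos: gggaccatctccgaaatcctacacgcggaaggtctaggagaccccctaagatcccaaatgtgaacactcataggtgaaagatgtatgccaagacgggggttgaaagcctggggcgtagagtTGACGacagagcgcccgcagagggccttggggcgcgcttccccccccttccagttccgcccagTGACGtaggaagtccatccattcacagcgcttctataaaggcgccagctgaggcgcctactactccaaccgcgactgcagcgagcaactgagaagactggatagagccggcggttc
Dusp1: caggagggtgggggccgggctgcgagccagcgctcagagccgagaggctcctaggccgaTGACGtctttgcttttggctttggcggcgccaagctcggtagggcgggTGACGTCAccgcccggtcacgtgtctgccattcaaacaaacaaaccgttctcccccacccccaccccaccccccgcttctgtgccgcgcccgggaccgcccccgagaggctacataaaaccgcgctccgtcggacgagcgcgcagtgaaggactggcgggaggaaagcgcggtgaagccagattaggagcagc
Jun: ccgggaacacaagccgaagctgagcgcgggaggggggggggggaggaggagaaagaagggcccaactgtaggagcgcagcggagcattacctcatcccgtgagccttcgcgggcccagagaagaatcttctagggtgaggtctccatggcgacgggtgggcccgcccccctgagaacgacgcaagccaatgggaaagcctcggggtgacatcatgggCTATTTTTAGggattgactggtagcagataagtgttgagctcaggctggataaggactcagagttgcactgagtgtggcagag
Atf3: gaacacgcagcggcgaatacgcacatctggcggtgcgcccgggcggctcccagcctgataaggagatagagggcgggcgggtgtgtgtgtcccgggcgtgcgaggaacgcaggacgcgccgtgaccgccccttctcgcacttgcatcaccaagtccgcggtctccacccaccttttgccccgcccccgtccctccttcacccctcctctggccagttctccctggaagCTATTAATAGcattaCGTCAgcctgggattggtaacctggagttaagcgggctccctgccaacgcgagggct

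The Nr4a1 region is at chr15:101266596-101266895 on the plus strand, Fos at chr12:85473640-85473939 (plus), Dusp1 at chr17:26508423-26508722 (minus), Jun at chr4:95052173-95052472 (minus) and Atf3 at chr1:191183284-191183583 (minus). Nr4a1 holds 4 separate copies of CGTCA, at -233, -213, -69 and -40 relative to the start. Only 0.231% of the 32851 start regions in the RefSeq table hold 4 or more matches to that core on both strands together, and 20.8% hold at least 1. The core was found in 6 of the 7 regions, with 2 copies in Fos at -129 and -66. In Dusp1 the full palindrome TGACGTCA stands at -143, where it counts as overlapping matches on both strands, with a further TGACG at -191. The full palindrome is in 1.79% of all start regions. The MEF2 consensus was matched in Jun by CTATTTTTAG at -33 and in Atf3 by CTATTAATAG at -22, against 3.19% of all start regions, and it was not among the letters of the Nr4a1 window. The serum response element, known as the CArG box, was in 0 of the 7 windows and in 1.63% of all, and the AP-1 site TGANTCA in 0 of the 7 and in 7.81% of all. The EGR site GCGNGGGCG was in Fosb at -50 and, as its reverse complement, in Nr4a1 at -60, against 5.55% of all start regions. These matches describe letters in short windows. Elements more than 250 bases before the start were not searched, so an absence here says nothing about them.

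The libraries held an estimated 13363056 to 21505981 reads, judged from the step between low values, and WT1 was the shallowest. Mef2c transcript itself was higher, not lower, in the libraries labelled heterozygote, so every direction here is between libraries as labelled. Mef2c had 438.6, 498.4, 508.7 and 402.2 normalized counts in WT1 to WT4 and 583.3, 704.9, 735.1 and 649.8 in HT5 to HT8, with no overlap between the groups. Its log2 fold change (0.53, standard error 0.13) did not pass here (limma-trend adjusted p 0.186), while the authors' deposited table gave a ratio of 1.44 with an FDR of 0.0162. The gene-level values cannot show reads of a targeted exon. WT1 and HT5 stood apart in Xist, transcribed from the inactive X chromosome, with 12 and 7.6 normalized counts against at least 5175.3 in the other libraries. Markers of neurons (6 genes) and of myelinating Schwann cells (5 genes) were present in every library, with overlapping summed levels of 115533 to 158675 and 107756 to 139178 normalized counts in wild type. The same sums were 127302 to 151638 and 99210 to 139199 in the libraries labelled heterozygote. In such bulk samples fewer cells of a type and less RNA per cell cannot be told apart.

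Of the 10 immediate early genes, Nr4a1 was the one whose groups did not overlap, 1.82-fold higher in the libraries labelled heterozygote on the log2(value + 1) scale, and it did not pass the adjusted threshold here. Fos, Fosb, Jun, Junb, Egr1, Atf3, Ier2, Dusp1 and Arc overlapped between the groups. With limma-trend 0 of the 10 had a Benjamini-Hochberg adjusted p under 0.05 (range 0.21 to 0.827), against 0.0807% of all tested genes. At an unadjusted p under 0.05 there was 1 of 10, Nr4a1, against 14.1% of all tested genes, and limma-voom on estimated reads gave 1 unadjusted and 0 adjusted, against 13.5% and 0.074%. Groups that do not overlap were found in 1 of 10 and in 7.26% of tested genes, with 3.4% of tested genes higher in the libraries labelled heterozygote in that way. 5 of the 10 had a positive log2 fold change and 5 a negative one, with a median of -0.006 beside 0.015 over all tested genes. The authors' deposited table gave 1 of the 10 an FDR under 0.05, again Nr4a1, against 1.61% of its genes. The limma-trend, limma-voom and non-overlap shares lay close to the background, and the authors' share rests on Nr4a1 alone. These counts are not a result about the genes as a set.

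**Figure D1:**
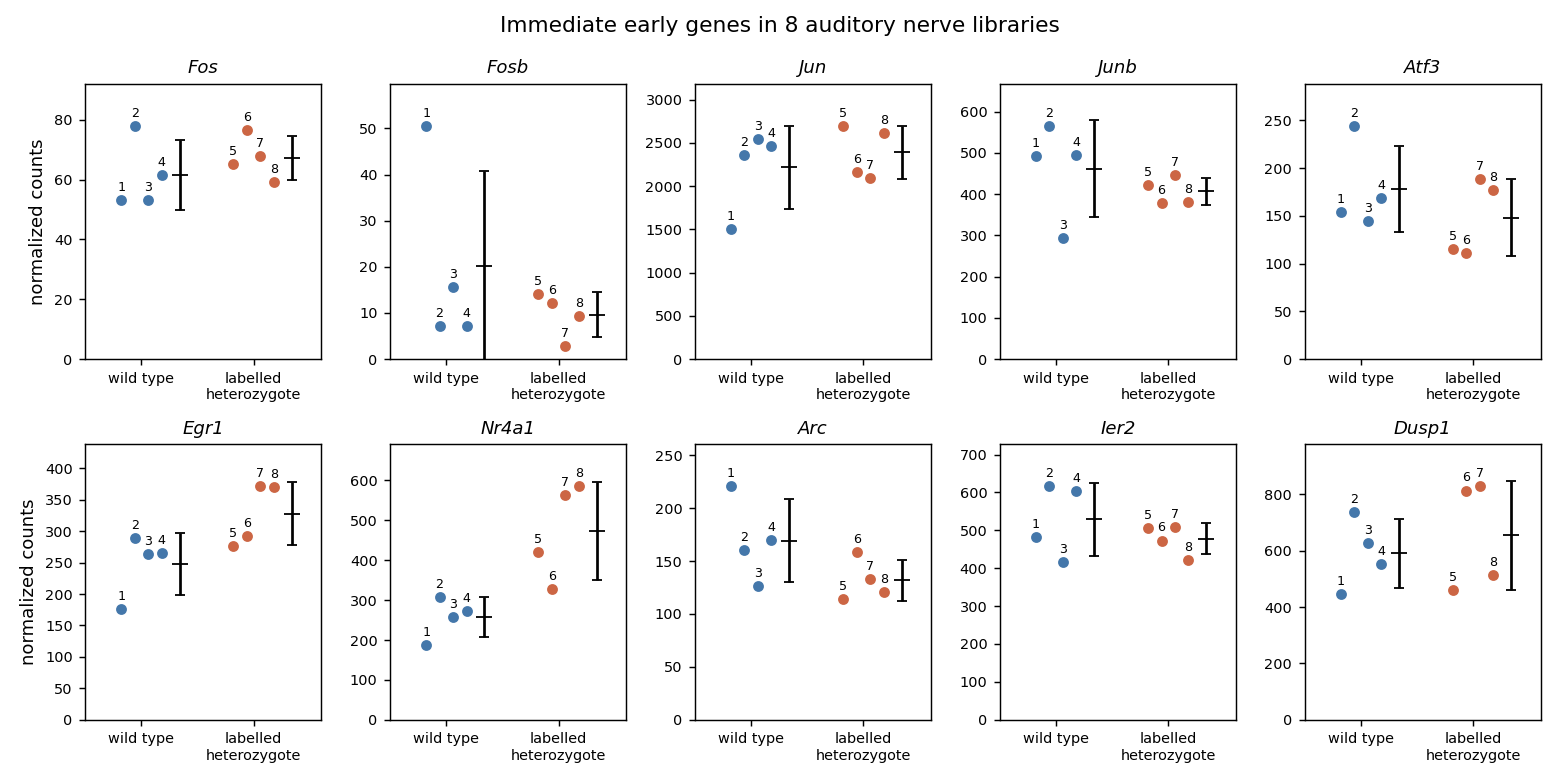
Normalized counts (vertical axes, each from 0) of the 10 immediate early genes in the wild-type and heterozygote-labelled libraries, with the replicate number above each point and mean ± SD at the right of each group (the Fosb wild-type bar is cut at 0). Only in the Nr4a1 panel do the groups separate, at 188.2 to 307.5 against 326.7 to 585.1, and in the Fosb panel WT1 lies alone at 50.6.

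Fos and Fosb encode FOS partners of the AP-1 dimer, which bind DNA together with JUN proteins. Fos had 53.2, 78.1, 53.2 and 61.6 normalized counts in WT1 to WT4 and 65.2, 76.7, 67.9 and 59.1 in HT5 to HT8. The groups overlapped, with WT2 and HT6 the highest of their groups. The means were 61.5 ± 11.7 and 67.2 ± 7.31 (SD, n = 4 each). The log2 fold change was 0.14 with a 95% interval of -0.44 to 0.71 (limma-trend adjusted p 0.827). It was 0.26 without WT2, 0.075 without WT1 or WT3 and 0.073 without HT6. The values rest on 41 to 99 estimated reads per library.

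Fosb was the scarcest of the 10, with 50.6, 7.1, 15.6 and 7.2 normalized counts in WT1 to WT4 and 14.1, 12.2, 2.8 and 9.4 in HT5 to HT8. WT1 stood alone, at 39 estimated reads against 3 to 17 in the other libraries. Fosb just passed the filter on low values, with exactly 4 libraries at 10 or more. Its log2 fold change was -0.71, with an interval of -2.33 to 0.9 (limma-trend adjusted p 0.666), and -0.28 without HT7. Without WT1 the filter removed Fosb, so how far the difference rests on that library was not tested. On the log2 scale WT1 lay 2.1 above the Fosb mean. The other wild-type libraries lay at -0.57 to 0.46 and HT5 to HT8 at -1.67 to 0.32. Its within-group SD of 1.09 on the log2 scale was above that of 97.6% of tested genes. Gene-level values add up the full-length transcript and the truncated isoform known as delta FosB.

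Jun and Junb encode the JUN partners. JUN is also a regulator of the Schwann cell response to nerve injury, and JUNB often opposes it at AP-1 sites. Jun was the most abundant of the 10, with 1502.8, 2357.8, 2540.9 and 2460.4 normalized counts in WT1 to WT4 and 2699.3, 2158.2, 2096.8 and 2610.3 in HT5 to HT8. WT1 was the lowest and the other 7 libraries overlapped across groups. For Jun the log2 fold change was 0.13 with an interval of -0.22 to 0.48 (limma-trend adjusted p 0.72), and -0.045 without WT1.

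Junb had 493.2, 566.2, 294.2 and 494.0 normalized counts in WT1 to WT4 and 422.5, 378.1, 445.7 and 380.7 in HT5 to HT8. The heterozygote-labelled libraries lay inside the wild-type range, which WT3 opened at the low end. The means were 461.9 ± 117 and 406.8 ± 33 (SD, n = 4 each), with a log2 fold change of -0.15 and an interval of -0.56 to 0.27 (limma-trend adjusted p 0.737). Without WT3 the log2 fold change was -0.35 and without WT2 -0.034, and it was -0.042 after correction for transcript length. In GENCODE M21 the Junb gene (chr8:84974484-84978718, minus strand) overlaps Prdx2 on the other strand and Jun overlaps the antisense gene Junos. Dusp1 overlaps Ergic1 on the other strand and 3 other annotated genes or pseudogenes, and Atf3 overlaps the RNA gene Gm24748. Whether counting used the strand is not given in the sources used here, so reads in the shared stretches may be assigned to either gene.

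Atf3 encodes a bZIP factor that dimerizes with JUN proteins and is a widely used marker of injured sensory neurons. It had 154.4, 244.5, 144.8 and 169.1 normalized counts in WT1 to WT4 and 115.1, 111.5, 188.5 and 177.2 in HT5 to HT8. HT5 and HT6 were below all wild-type libraries, while HT7 and HT8 lay inside their range. For Atf3 the log2 fold change was -0.28 with an interval of -0.82 to 0.27 (limma-trend adjusted p 0.616), and it was -0.11 without WT2.

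Egr1 encodes a zinc finger transcription factor induced by SRF and its partners, which in turn induces its own NAB corepressors. Egr1 had 176.5, 288.6, 263.1 and 265.7 normalized counts in WT1 to WT4 and 277.0, 291.9, 371.3 and 370.4 in HT5 to HT8. HT7 and HT8 were above every wild-type library, and HT5 lay below WT2, so the groups overlapped by that 1 library. The means were 248.5 ± 49.3 and 327.6 ± 50.3 (SD, n = 4 each). The difference of 0.41 on the log2 scale (standard error 0.19) had an unadjusted limma-trend p of 0.0522 and an adjusted p of 0.356. In the authors' deposited table the ratio was 1.32, with a p-value of 0.0468 and an FDR of 0.319. Without WT1 the log2 fold change was 0.25.

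Nr4a1 encodes NUR77, an orphan nuclear receptor that can act on transcription without a known ligand. Its protein and activity were not measured here. The gene lies at chr15:101254269-101274795 on the plus strand (GENCODE M21, GRCm38), with no other annotated gene overlapping it. Nr4a1 had 188.2, 307.5, 257.6 and 273.0 normalized counts in WT1 to WT4 and 420.4, 326.7, 564.5 and 585.1 in HT5 to HT8. All 4 heterozygote-labelled libraries were above all 4 wild-type libraries, but HT6 was only just above WT2, and HT7 and HT8 were the highest. The means were 256.6 ± 50.1 and 474.2 ± 123 (SD, n = 4 each). A two-sided exact permutation test of the means gave p = 0.0286, which is the lower limit of a design with 4 libraries per group. Every gene whose groups do not overlap (7.26% of tested genes) gets this value, so the test only restates the separation.

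For Nr4a1 the difference was 0.87 on the log2 scale (standard error 0.21, interval 0.4 to 1.33). The unadjusted limma-trend p was 0.00162 and the adjusted p 0.21, so the difference did not pass among 14870 genes. The authors' deposited table gave a ratio of 1.84 with an FDR of 0.0126 for the same gene, from a model whose settings are not given in the sources used here. Across the 19 alternatives the log2 fold change of Nr4a1 ran from 0.73 without WT1 to 1.03 without HT6, and its limma-trend and limma-voom adjusted p from 0.0729 to 0.59. It was 0.77 without WT1 and HT5, the libraries low in Xist. The other NR4A receptors did not differ beyond their spread. Nr4a2 had a log2 fold change of 0.11 with an interval of -0.33 to 0.56. Nr4a3 had 0.16 with an interval of -1.15 to 1.47, on levels of 6.4 to 47.8 normalized counts.

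Markers of some other cell types also differed between the labels, in part with overlapping sums. The neutrophil list (4 of 5 markers in the table, 3 of them higher at an unadjusted p under 0.05) summed to 106 to 2346 normalized counts in wild type and 649 to 6030 in the libraries labelled heterozygote. HT6 had the lowest neutrophil sum (649) and the lowest Nr4a1 of its group, and HT7 and HT8 had the highest of both (6030 and 4406), whereas WT1 had 2346 and the lowest Nr4a1 of all. The osteoblast list (5 of 5 in the table, 2 higher at an unadjusted p under 0.05) summed to 2222 to 10468 in wild type and 5028 to 12784 in the libraries labelled heterozygote. The macrophage list, 0 of 5 past an unadjusted 0.05, summed to 2847 to 4450 and 2575 to 3483. The oligodendrocyte list summed to 19753 to 24793 in wild type and 7651 to 14978 in the libraries labelled heterozygote, with 2 of 5 genes past the limma-trend adjusted threshold. The astrocyte list (3 of 5 lower at an unadjusted p under 0.05) summed to 19420 to 29302 in wild type and 9690 to 17239 in the libraries labelled heterozygote. No marker in the table was at 0 in any library, and the neutrophil marker Camp was not analysed here. The part of these cells in the Nr4a1 difference was not tested.

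**Figure D2:**
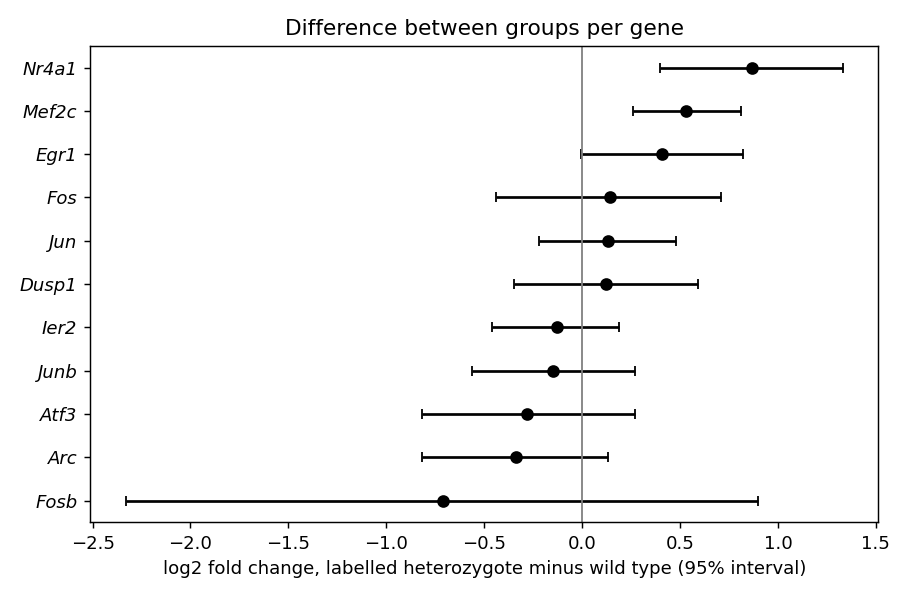
Log2 fold change of each gene, libraries labelled heterozygote minus wild type (horizontal axis), with 95% intervals from limma-trend on 4 libraries per group. The intervals of Nr4a1 (0.4 to 1.33) and Mef2c (0.26 to 0.81) lie above 0 and all others span 0, with neither gene past the adjusted threshold.

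Arc, Ier2 and Dusp1 are immediate early genes with other roles than the transcription factors above. ARC is a neuronal protein that drives removal of AMPA receptors from synapses. Arc had 220.6, 160.1, 126.5 and 170.3 normalized counts in WT1 to WT4 and 114.1, 158.6, 132.9 and 121.0 in HT5 to HT8. WT1 was the highest and the others overlapped. For Arc the log2 fold change was -0.34 with an interval of -0.82 to 0.13 (limma-trend adjusted p 0.482), and -0.21 without WT1. HT5 was the lowest, and without WT1 and HT5, the libraries low in Xist, the log2 fold change was -0.14.

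Ier2 encodes a small nuclear protein of the rapid growth factor response. It had 481.5, 615.9, 417.1 and 603.9 normalized counts in WT1 to WT4 and 506.2, 473.1, 508.9 and 421.9 in HT5 to HT8. All 4 heterozygote-labelled libraries lay inside the wild-type range. The log2 fold change was -0.13 with an interval of -0.46 to 0.19 (limma-trend adjusted p 0.687). It ran from -0.24 without WT3 to -0.056 without WT2, with -0.065 without WT4 and -0.076 without HT8.

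Dusp1 encodes a phosphatase that switches off MAP kinases and so ends the signal that induced it. It had 445.1, 737.3, 626.1 and 553.2 normalized counts in WT1 to WT4 and 459.5, 813.8, 828.4 and 514.7 in HT5 to HT8. HT6 and HT7 were the highest and HT5 and HT8 were lower than WT2 and WT3. For Dusp1 the log2 fold change was 0.12 with an interval of -0.35 to 0.59 (limma-trend adjusted p 0.811). It was -0.0081 without HT7 and -0.0057 without WT1.

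Levels were set against each other per kilobase of the longest GENCODE M21 transcript, as the mean ± SD over all 8 libraries. Jun was the highest at 722 ± 121 normalized counts per kilobase, above 89% of tested genes. Ier2 (331 ± 48.6), Dusp1 (269 ± 66.7) and Junb (240 ± 46.9) followed. Nr4a1 stood at 143 ± 56.8, close to the median tested gene at 139. Atf3 (82.2 ± 21.6), Egr1 (64.2 ± 14) and Arc (49.3 ± 11.4) were lower. Fos, at 30.5 ± 4.53, was above only 16.6% of tested genes, and Fosb, at 3.93 ± 3.97, above only 0.673%. Neighbours in this order from Ier2 down to Arc overlapped in their ranges over libraries, and Jun, Fos and Fosb did not overlap with the genes beside them.

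Within groups the 10 genes varied somewhat more than the average gene, with a median SD of 0.29 on the log2 scale beside 0.24 over all tested genes, and 8 of the 10 were above that value. Fos and Ier2 were the exceptions, each at 0.21. Fosb had an SD above that of 97.6% of tested genes, and Dusp1, the next, above that of 74.9%. The comparison was not matched on level. Averaged over the 10 genes, the libraries deviated from the gene means by between -0.12 (WT3) and 0.14 (WT2). WT2 was above the gene mean in 8 of the 10. WT1 was below it in 7 of the 9 genes other than Fosb, with a mean deviation of -0.24 over those 9, and WT3 likewise in 7, with -0.19. WT2 was the highest library for 4 of the 10 (Fos, Junb, Atf3 and Ier2) and the lowest for 0. WT1 was the lowest for 5 (Fos, Jun, Egr1, Dusp1 and Nr4a1, tied with WT3 for Fos) and the highest for 2 (Fosb and Arc). WT1 was also the library with the most of the ribosomal RNA precursor Rn45s, at 4.276% of normalized counts against 1.598% to 2.908% in the others, and with the largest erythroid marker sum, 34395 against 8535 to 28676. The part of either in the WT1 values was not tested.

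**Figure D3:**
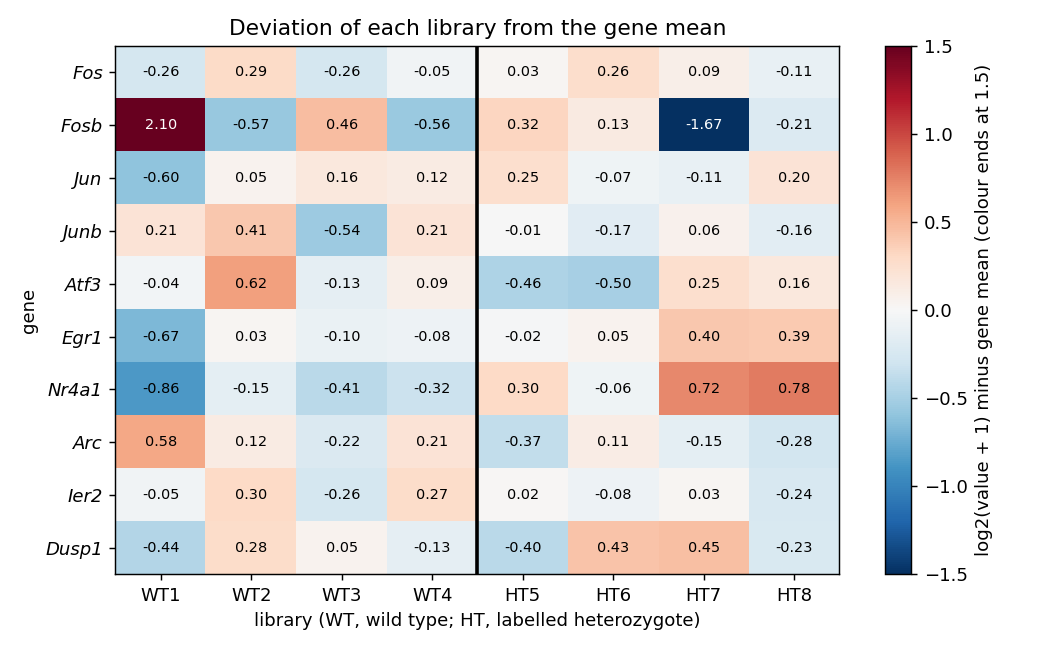
Deviation of log2(value + 1) from the gene's mean over 8 libraries (colour and number) for each immediate early gene (rows) and library (columns, wild type left of the line). WT1 runs from -0.86 for Nr4a1 to 2.1 for Fosb, and no column has 1 sign in all rows.

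Relations between the genes were read across the 8 libraries. Fos was set against the 9 others, and across the library values 0 of these 9 relations passed 0.05, either before or after Benjamini-Hochberg adjustment. The closest was Dusp1, with Pearson's r of 0.68 (exact permutation p 0.0731, adjusted 0.536) and Spearman's rho of 0.65 (exact permutation p 0.0918, adjusted 0.265). Without WT2 and HT6, the libraries farthest from the median of Fos, its r was 0.4. On residuals from the group means the closest was Ier2, with an r of 0.75 (permutation p 0.032, adjusted 0.288). Its r was 0.53 on the library values (exact permutation p 0.179, adjusted 0.536). The residual p is approximate, since residuals were permuted across all 8 libraries although the group means had been removed. Fos and Fosb had an r of -0.55 (exact permutation p 0.15, adjusted 0.536) and a rho of -0.68 (exact permutation p 0.0729, adjusted 0.265), and an r of -0.78 without the same libraries. WT1 and HT7, the highest and lowest libraries for Fosb, were kept in that check, and leaving them out was not tested. The genes with levels most like Fos, among 13274 genes with a mean of at least 50 normalized counts, were Gm2274, Adamtsl3, Itpkc, Snx24 and Surf4. Their r with Fos over the 8 libraries was 0.953, 0.942, 0.937, 0.936 and 0.925, values that were picked as the highest of the whole scan.

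All 45 pairs of the 10 genes were then examined, a step added after the values had been seen. 24 had a positive r and 21 a negative one, with a median of 0.11. 7 pairs had an unadjusted exact permutation p under 0.05 and 0 an adjusted one. Egr1 and Nr4a1 were the closest, with an r of 0.92 (exact permutation p 0.00124, adjusted over the 45 pairs 0.0558) and a rho of 0.9 (exact permutation p 0.00456, adjusted 0.103). Both were lowest in WT1 and highest in HT7 and HT8. Their r was 0.87 without WT1 and HT7, and 0.88 on residuals from the group means.

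Junb and Ier2 came next, with an r of 0.85 (exact permutation p 0.00675, adjusted 0.152) and a rho of 0.9 (exact permutation p 0.00456, adjusted 0.103). Both were highest in WT2 and lowest in WT3, and their r was 0.71 without these libraries and 0.84 on residuals. Both genes lie on chromosome 8, Ier2 at 84661331-84662852 and Junb 312 kb further along. Jun and Arc went in opposite directions, with an r of -0.82 (exact permutation p 0.015, adjusted 0.188) and a rho of -0.76 (exact permutation p 0.0368, adjusted 0.354). Their r was -0.77 without WT1 and HT7 and -0.85 on residuals. Fosb and Egr1 had an r of -0.86 (exact permutation p 0.0167, adjusted 0.188) and a rho of -0.74 (exact permutation p 0.0458, adjusted 0.354). That relation rested on WT1 and HT7, since its r was -0.21 without them.

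**Figure D4:**
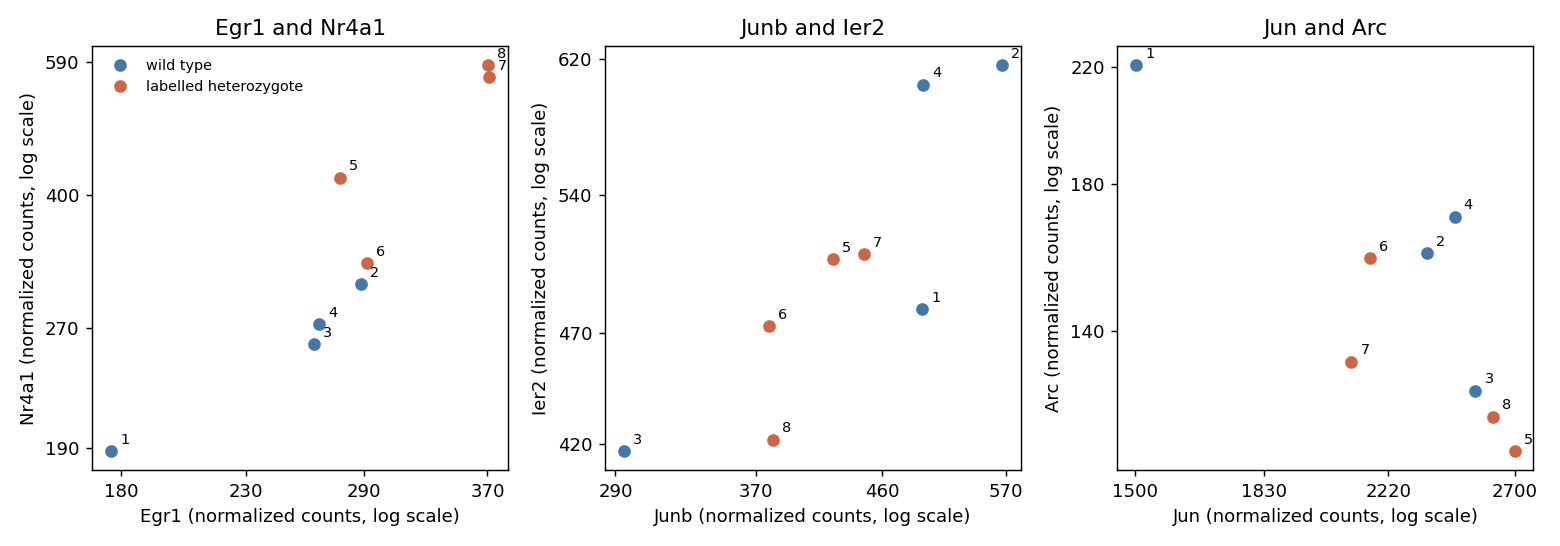
Normalized counts on log scales for Egr1 and Nr4a1, Junb and Ier2, and Jun and Arc, 1 point per library with its replicate number. Egr1 and Nr4a1 rise together from WT1 to HT7 and HT8 (r 0.92), Junb and Ier2 from WT3 to WT2 (r 0.85), and Jun and Arc run in opposite directions (r -0.82), with 0 of the 45 pairs past an adjusted 0.05.

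The other genes of the pathway were taken from 6 lists with 77 tested genes. With limma-trend 0 of the 77 passed an adjusted p under 0.05. At an unadjusted p under 0.05 there were 10 (13%), near the 14.1% of all tested genes. Of the 77 genes 7 were higher, where 6.72% of all tested genes were, and 3 were lower, where 7.34% were. By sign alone 53 of the 77 had a positive log2 fold change and 24 a negative one, where 52.3% of all tested genes were positive. Without overlap between the groups 4 of the 77 were higher and 3 lower, where 7.26% of all tested genes did not overlap. The 14.1% and 7.26% are also the background of the counts per list below. The median log2 fold change of the 77 was 0.11 beside 0.015.

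Of 10 other AP-1 and bZIP genes, 1 had an unadjusted p under 0.05. Atf4, a factor of the integrated stress response, had 3162.1 to 3565.5 normalized counts in wild type and 2704.0 to 3083.5 in the libraries labelled heterozygote, without overlap (log2 fold change -0.19, limma-trend adjusted p 0.354). After correction for transcript length its log2 fold change was -0.11, with an unadjusted limma-trend p of 0.252. Batf3, of dendritic cells, had 15.8 to 66.2 and 3.5 to 27.3 normalized counts (log2 fold change -1.34, limma-trend adjusted p 0.365; -0.85 without HT6). Jund, the JUN family member that is expressed without a stimulus, had 5478.4 to 6842.3 over all libraries, with a log2 fold change of -0.018.

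In the list of EGR and NR4A genes, 1 of 6 had an unadjusted p under 0.05. This was Nab2, a corepressor that EGR proteins induce and that binds them. Nab2 had 726.8, 726.3, 601.3 and 544.7 normalized counts in WT1 to WT4 and 823.4, 790.3, 926.4 and 840.1 in HT5 to HT8. The groups did not overlap, with a log2 fold change of 0.39 and a standard error of 0.12 (limma-trend p 0.00844, adjusted 0.266). Egr3 had a log2 fold change of 0.29 (limma-trend adjusted p 0.611), with 0.19 without HT8, 0.2 without WT2, 0.45 without HT5 and 0.5 without the libraries low in Xist. Egr2, which drives myelination in Schwann cells, had -0.15 with an interval of -0.66 to 0.37.

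Among 28 other rapidly induced genes, 6 (21.4%) had an unadjusted p under 0.05, against 14.1% of all tested genes. Of these, 4 were higher (Klf4, Per1, Klf10 and Sik1) and 2 lower (Gadd45g and Rhob). In this list 2 genes were higher and 2 lower without overlap. Klf4, a zinc finger factor of barrier and vascular cells, had 475.0, 335.9, 472.1 and 323.7 normalized counts in WT1 to WT4 and 511.6, 930.6, 819.9 and 668.5 in HT5 to HT8. Its groups did not overlap (log2 fold change 0.85, limma-trend adjusted p 0.178). Klf2, its relative and also studied as a MEF2 target, overlapped, with a log2 fold change near 0 and an interval of -0.34 to 0.34.

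Gadd45g, a growth arrest and stress sensor, had 658.0, 678.2, 528.9 and 763.4 normalized counts in WT1 to WT4 and 459.5, 420.8, 451.4 and 326.3 in HT5 to HT8. The groups did not overlap (log2 fold change -0.66, limma-trend adjusted p 0.167). After correction for transcript length the log2 fold change of Gadd45g was -0.46. Without WT3 it was the 1 gene of the 77 that passed, at an adjusted limma-trend p of 0.0383, where 1.49% of all tested genes passed. Rhob, a small GTPase, had 5941.6 to 6517.4 in wild type and 4632.7 to 5207.8 in the libraries labelled heterozygote (log2 fold change -0.32, limma-trend adjusted p 0.214). It was named after its values were seen, as were Per1, Klf10, Sik1 and Klf2.

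Of 9 MAP kinase phosphatases and Sprouty inhibitors, 0 had an unadjusted limma-trend p under 0.05. Dusp4 and Spry4 came closest, with log2 fold changes of 0.66 and 0.57 (limma-trend adjusted p 0.413 and 0.445). Dusp4 was 0.32 without WT1, and Spry4 was 0.22 without WT4 and 0.86 without the libraries low in Xist. Among 9 neuronal activity genes, 1 had an unadjusted p under 0.05. Bdnf, a neurotrophin with activity-dependent promoters, had 109.0, 143.5, 123.7 and 82.1 normalized counts in WT1 to WT4 and 252.0, 129.0, 227.1 and 255.0 in HT5 to HT8. HT6 lay inside the wild-type range and the other 3 above it (log2 fold change 0.89, limma-trend adjusted p 0.255). HT6 was also the lowest of its group for Nr4a1. Scg2, a granin of secretory vesicles, had 1578.7 normalized counts in WT4 and 52.1 to 185.6 in the others, so its log2 fold change of -1.37 rested on that library and was -0.37 without it.

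Upstream of the immediate early genes, 14 of 15 kinases and transcription factors had a positive log2 fold change, with a median of 0.16 that was 0.09 after correction for transcript length. Over all tested genes 52.3% were positive. Mrtfb, a coactivator of SRF, was the 1 with an unadjusted p under 0.05 (log2 fold change 0.29, limma-trend adjusted p 0.328), and its log2 fold change was 0.072 after the length correction. Srf itself had 507.4, 769.6, 817.6 and 798.4 normalized counts in WT1 to WT4 and 859.2, 896.6, 951.8 and 840.1 in HT5 to HT8, without overlap (log2 fold change 0.32, limma-trend adjusted p 0.361). WT1 was the lowest, and the log2 fold change was 0.16 without it and 0.17 without the libraries low in Xist. Of the MEF2 paralogs, Mef2a differed by 0.22 (interval -0.046 to 0.49) and Mef2d by 0.16 (interval -0.11 to 0.44) on the log2 scale.

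**Figure D5:**
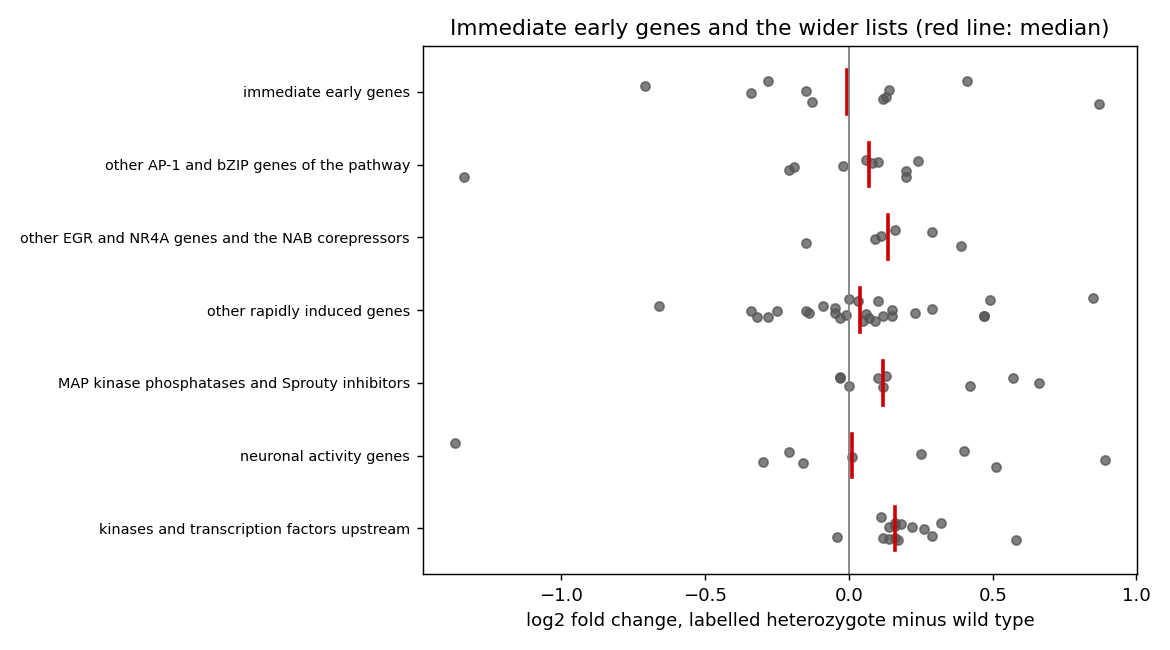
Log2 fold change (horizontal axis, libraries labelled heterozygote minus wild type) of every tested gene in the immediate early list and the 6 wider lists, 1 point per gene, with the list median as a red line. Medians lie between -0.01 for the immediate early genes and 0.16 for the upstream kinases and transcription factors, and 0 of the points pass an adjusted 0.05.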

How the data were processed

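Poly(A) RNA of auditory nerves from 8 mice was sequenced with a strand-specific kit, per the labels' protocols. The submitters' processing notes name mm10, STAR, Partek and DESeq2 without roles or versions; annotation and counting settings are not given in the sources used here. The values the authors deposited are a signal per gene and library, gene counts divided by a size factor as judged from the values. The p-value, FDR, ratio and log2 ratio columns are the authors' own comparison, per the file headers; their signed fold change, a score in the authors' table, was not used.

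The step worth 1 read lay between 0.7886 and 1.2978 normalized counts, and 85.5% to 90.1% of values under 200 were whole multiples within 0.05. This is under the 95% wanted, so no count model was the main test, and limma-voom on estimated reads was an alternative. 3 reads correspond to 2.37 to 3.89 normalized counts. Standard errors and intervals rest on the spread between mice, which limma-trend moves toward that of genes of similar level. A gene's interval can therefore be wider or narrower than its own values give. The labels name no litter or batch.

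For 14870 genes log2(value + 1) was fitted to group alone in all 8 libraries with limma-trend (limma 3.58.1, R 4.3.3), p-values were adjusted by Benjamini-Hochberg, and 0.05 was the threshold. A fold change on that scale understates the change of low genes. The fit was tested on simulated data with the same spread setting for every gene, where it recovered 93.9% of 2-fold changes. That share does not carry over to real genes with a wider spread. Correlations used exact permutation of pairings (Python 3.11.15, numpy 2.4.6, scipy 1.17.1). Lengths came from GENCODE M21 (98.8% of genes matched). Cyr61, Ctgf, Mkl1 and Mkl2 were found as Ccn1, Ccn2, Mrtfa and Mrtfb; Fosl1, Egr4, Dusp2 and Npas4 were not analysed here.

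The genes, lists and tests were chosen with earlier results of these data known. Named were all 10 genes, Mef2c, of each wider list the genes past the threshold or else the 2 with the smallest p, and the 5 genes most like Fos. Jund, Egr2, Nr4a2, Nr4a3, Klf2, Mef2a, Mef2d, Rhob, Per1, Klf10 and Sik1 fall outside this rule; their values had been seen when they were added. Marker sums overlapped between groups for endothelial cells (4951 to 6943 over all libraries), fibroblasts (22879 to 41770), mural cells (5640 to 7566) and muscle (2 to 25, 1 of 5 genes in the table). At an unadjusted limma-trend p under 0.05, 1 of 5 endothelial and 2 of 5 mural markers were lower, and 1 of 5 fibroblast markers was higher. Alternatives were other pseudocounts, filters and scalings, robust eBayes, low Xist as a covariate or left out, and each library left out in turn. The transcript length correction (loess, span 0.5) and limma-voom on estimated reads were added after seeing the data.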

Additional observations from a re-analysis of the deposited data

Results flagged for a closer look

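In 56 sets of 4 libraries (28 genes in each group), the gap between an extreme library and its nearest neighbour was compared with the range. It was unusually wide in 2 sets, where chance gives about 2.8, and in 0 sets of the 10 immediate early genes and Mef2c. Scg2 had a gap of 0.915 of its range in wild type, because WT4 had 1578.7 normalized counts against 56.0 to 185.6. Srf had a gap of 0.845 of its range in wild type, because WT1 had 507.4 against 769.6 to 817.6.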

How the results depend on the processing

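No immediate early gene passed an adjusted 0.05 under any alternative run, the smallest adjusted p being 0.0729 for Nr4a1 without WT3. Of 184 refits of the 10 genes, 179 kept direction and call and 5 changed sign. Jun was -0.11 without the libraries low in Xist and ran from -0.045 (without WT1) to 0.21 when 1 library was left out, Ier2 was 0.0021 with the transcript length correction, and Dusp1 ran from -0.0081 (without HT7; -0.0057 without WT1) to 0.27 when 1 library was left out, on the log2 scale. Fosb could be refitted in 13 of 19 alternatives, since the filter removed it from the others. Fos with Arc had an r of 0.17 on residuals from the group means, against -0.08. The wider lists had 0 to 1 genes past the threshold when 1 library was left out, the 1 being Gadd45g without WT3. All tested genes past the threshold numbered 12, with 7 under quantile normalization, 26 with the length correction and 0 to 221 when 1 library was left out. That count was 0 without WT2, WT4 or HT8, 6 without HT7, 7 without HT5 and 221 without WT3. Mef2c kept its direction and call in all 19 alternatives, with log2 fold changes of 0.38 to 0.6. No scaling moved the median of all tested genes by over 0.1. No paired analysis was possible because the replicate numbers are not shared between the groups. Depth limits Fosb most, at 3 to 39 estimated reads per library.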
